A study of Mus musculus with 8 samples.

Results

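The Akr1c genes encode cytosolic aldo-keto reductases, and 7 of them, *Akr1c6*, *Akr1c12*, *Akr1c13*, *Akr1c14*, *Akr1c18*, *Akr1c19* and *Akr1c20*, were followed here among the 55385 gene identifiers of a mouse liver RNA-seq table. The genes were picked by symbol, and the list was chosen on measured values, since the genotype differences in the counts and FPKM of these same mice were already known. Values of the 7 genes between genotypes are therefore given as a description without a test. All 7 passed the filter for tested genes, which asks for 0.5 FPKM (counts per exon length and per library total) or more in 4 or more of the 8 mice and left 14340 genes. An eighth family member in the same cluster, *Akr1c21*, had between 0 and 3 counts in any mouse and was not tested.

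The mice were 4 *Usp39*-HKO males and 4 control male littermates on the C57BL/6J background, all 5 weeks old and fasted for 16 h before the liver was taken. *Usp39*-HKO mice carry *Usp39* fl/fl, with *loxP* sites around exon 2, together with Albumin-Cre, a transgene that drives the recombinase in hepatocytes. Whether other liver cells keep the gene cannot be seen in counts from whole liver. The controls are labelled WT, and whether they carry the floxed allele is not given in the sources used here. Usp39 is a protein of the U4/U6.U5 tri-snRNP of the spliceosome, and the comparison asks which liver transcripts differ when hepatocytes lack it.

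Aldo-keto reductases use NADPH to reduce aldehydes and ketones. The Akr1c branch is known for acting on the keto groups of steroid hormones, bile acid precursors and prostaglandins, and thereby for setting how much active hormone a tissue holds. In rodents the branch has expanded into a row of closely related genes, several of which are abundant in liver.

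The genes lie in a single stretch of chromosome 13 (chr13:4049011-4523345, GRCm38, the assembly that mm10 names). In order along the chromosome they are *Akr1c14* (ENSMUSG00000033715, 4049011 to 4090688, plus strand), *Akr1c18* (ENSMUSG00000021214, 4132615 to 4150654, minus), *Akr1c13* (ENSMUSG00000021213, 4191150 to 4205596, plus), *Akr1c19* (ENSMUSG00000071551, 4228700 to 4252843, plus), *Akr1c12* (ENSMUSG00000021211, 4268176 to 4279433, minus), *Akr1c6* (ENSMUSG00000021210, 4434306 to 4457877, plus) and *Akr1c20* (ENSMUSG00000054757, 4486849 to 4523345, minus). Each of the 7 has a longest coding sequence of 972 bases, or 323 codons, in GENCODE vM21. The start of that sequence is shown for *Akr1c18* and *Akr1c14*, the genes furthest from 0 in log2 fold change between genotypes, and for the near-identical pair *Akr1c12* and *Akr1c13*, with capitals at the bases that differ from *Akr1c18*.

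Akr1c18: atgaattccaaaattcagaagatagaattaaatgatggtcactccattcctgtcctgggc
Akr1c14: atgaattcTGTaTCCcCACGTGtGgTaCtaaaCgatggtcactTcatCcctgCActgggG
Akr1c12: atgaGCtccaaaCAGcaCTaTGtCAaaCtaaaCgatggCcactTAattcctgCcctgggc
Akr1c13: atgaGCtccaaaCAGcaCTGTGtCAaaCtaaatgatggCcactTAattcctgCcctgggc

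Over the 60 bases shown, *Akr1c14* differed from *Akr1c18* at 21 positions, and *Akr1c12* and *Akr1c13* each did at 17. Over the whole coding sequence *Akr1c18* was at most 76.7% identical to another of the 7, whereas *Akr1c12* and *Akr1c13* were 96.2% identical (935 of 972 bases) and *Akr1c6* and *Akr1c20* were 92.3% identical. The difference matters for counting, because a read that fits 2 genes may be split, dropped or counted more than once, and how such reads were treated is not given in the sources used here. Of all windows of 150 bases in the *Akr1c12* and *Akr1c13* transcripts 7.1% stood unchanged in the other gene, and of windows of 50 bases 28.6% did. No 150-base window of *Akr1c6*, *Akr1c18* or *Akr1c20* stood in another gene's transcript. *Akr1c14* shares 234 exon bases with the annotated gene *Gm18857* and *Akr1c19* shares 291 with *Marcksl1-ps4*, both on the same strand, so reads there cannot be assigned from position alone.

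RefSeq promoters, which run from 250 bases before to 50 bases after a gene's start, were given for 6 of the 7 genes. The table holds no entry for *Akr1c20*. For the near-identical pair, its nearest relative *Akr1c19* and the genes whose levels differed most between genotypes, the 150 bases before the start (the more upstream of the GENCODE and RefSeq starts within 200 bases of each other) follow on the strand of the gene (GRCm38.p6). The RefSeq starts used for *Akr1c14* and *Akr1c19* lie inside the gene spans given above. The sequence before the first annotated base of these genes is therefore not covered. Capitals mark matches to the motifs named after them.

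Akr1c18, chr13:4150655-4150804, minus strand: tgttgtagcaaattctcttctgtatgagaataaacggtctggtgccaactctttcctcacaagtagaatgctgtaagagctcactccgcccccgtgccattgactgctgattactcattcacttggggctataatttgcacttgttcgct
Akr1c14, chr13:4059441-4059590, plus strand: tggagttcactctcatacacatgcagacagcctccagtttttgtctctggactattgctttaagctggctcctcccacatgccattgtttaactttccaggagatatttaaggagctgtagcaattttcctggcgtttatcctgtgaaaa
Akr1c12, chr13:4279434-4279583, minus strand: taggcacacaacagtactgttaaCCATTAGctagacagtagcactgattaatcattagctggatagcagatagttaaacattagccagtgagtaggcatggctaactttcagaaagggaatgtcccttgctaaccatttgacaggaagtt
Akr1c13, chr13:4191000-4191149, plus strand: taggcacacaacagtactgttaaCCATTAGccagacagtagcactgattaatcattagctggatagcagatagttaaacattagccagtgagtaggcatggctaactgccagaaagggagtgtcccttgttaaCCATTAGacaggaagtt
Akr1c19, chr13:4233590-4233739, plus strand: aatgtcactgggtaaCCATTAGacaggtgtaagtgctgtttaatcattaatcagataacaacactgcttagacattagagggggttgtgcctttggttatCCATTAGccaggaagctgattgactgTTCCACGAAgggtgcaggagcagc

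The promoters of *Akr1c12* and *Akr1c13* were 93.4% identical over the 300 bases, and those of *Akr1c19* and the pair were 52.7% and 55.7% identical. Every other pair among the 6 lay between 40.8% and 48.4%. The letters CCATTAG, chosen after the sequences were seen and searched on both strands, stood 2 times in the 300-base window of *Akr1c12*, 3 times in that of *Akr1c13* and 2 times in that of *Akr1c19*. Of all 32851 promoters in the table, 2.0% hold them. The other motifs searched, on both strands, were TATAAA (in 13.6% of all promoters), GTTAAT for HNF1 (7.1%), TTGCNNAA for C/EBP (10.8%), TGACNNNGC for the antioxidant response element (12.4%), TTCNNNGAA for STAT5 (8.3%), GAANNTTC for the heat shock element (7.86%) and TGTTCT for the glucocorticoid receptor (19.0%). The STAT5 and heat shock motifs are built from the same letters in another order and spacing and can share bases, but no match in the stretches shown overlaps another.

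*Akr1c19* held 1 STAT5 match, capitalised in the stretch shown, and 1 match to the antioxidant response element outside it. *Akr1c18* held 1 heat shock match outside the stretch shown, and *Akr1c6* held 1 TATAAA. *Akr1c14*, in the window at its inner start, held no match to any of the 8 motifs. A match is a run of letters and not a shown binding site, and the absence of one says nothing of a factor that acts elsewhere.

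The sequencing depth was similar in all mice, with between 8589636 and 10418450 counts on genes, and 3 counts, taken as the floor, were worth 0.288 to 0.349 CPM (counts relative to the library total). This floor covers counting error only, since PCR reads without molecular identifiers are not independent molecules. *Usp39* itself had an FPKM of 9.35, 10.4, 8.76 and 9.78 in control mice 1 to 4 and of 8.37, 8.63, 8.70 and 8.07 in *Usp39*-HKO mice 1 to 4 (−0.41 ± 0.11 on the log2 scale, the error being the standard error, adjusted p = 0.0212 in edgeR's quasi-likelihood test). The count takes in every exon and every liver cell, so it bears only in part on the deletion of exon 2, and with library totals alone as the scale the fold change was −0.18 with an adjusted p of 0.241. The *Usp39* call held in 6 of the 8 fits that left out 1 mouse (adjusted p between 0.0317 and 0.0684 in edgeR). It was lost in limma on log2(FPKM + 1) (adjusted p = 0.19). Of all genes tested, 3225 (22.5%) passed an adjusted p of 0.05. *Usp39*-HKO livers had more RNA of 1561 of them (10.9%) and less of 1664 (11.6%). TMM factors, which set the median gene to about 0, were between 0.912 and 0.940 in controls and between 1.01 and 1.19 in *Usp39*-HKO mice. With library totals alone the median gene lay 0.23 higher in *Usp39*-HKO livers on the log2 scale, and 3509 genes were then called higher and 702 lower. Deposited FPKM carry this shift, whereas log2 fold changes from edgeR are given relative to it.

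In control livers the 7 genes spanned a wide range of levels per length. *Akr1c6*, which encodes an estradiol dehydrogenase of liver, had the highest mean FPKM, 181 ± 23.5 (SD, n = 4 mice). *Akr1c14*, which encodes a hydroxysteroid dehydrogenase that reduces dihydrotestosterone, followed at 60.5 ± 13.4 (SD, n = 4). The mean FPKM was 44.2 ± 5.85 for *Akr1c12*, 35.3 ± 3.86 for *Akr1c13*, 19.2 ± 2.52 for *Akr1c20* and 7.18 ± 5.13 for *Akr1c19* (SD, n = 4 mice each). *Akr1c18*, which encodes the hydroxysteroid dehydrogenase that inactivates progesterone and is best known from the ovary at the end of pregnancy, was the lowest at 1.10 ± 0.559 (SD, n = 4). In this order the ranges over mice overlapped between *Akr1c14* and *Akr1c12* and between *Akr1c12* and *Akr1c13*, and no other neighbours overlapped. The plot of FPKM by mouse shows these levels beside those of the *Usp39*-HKO livers.

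**Figure D1:**
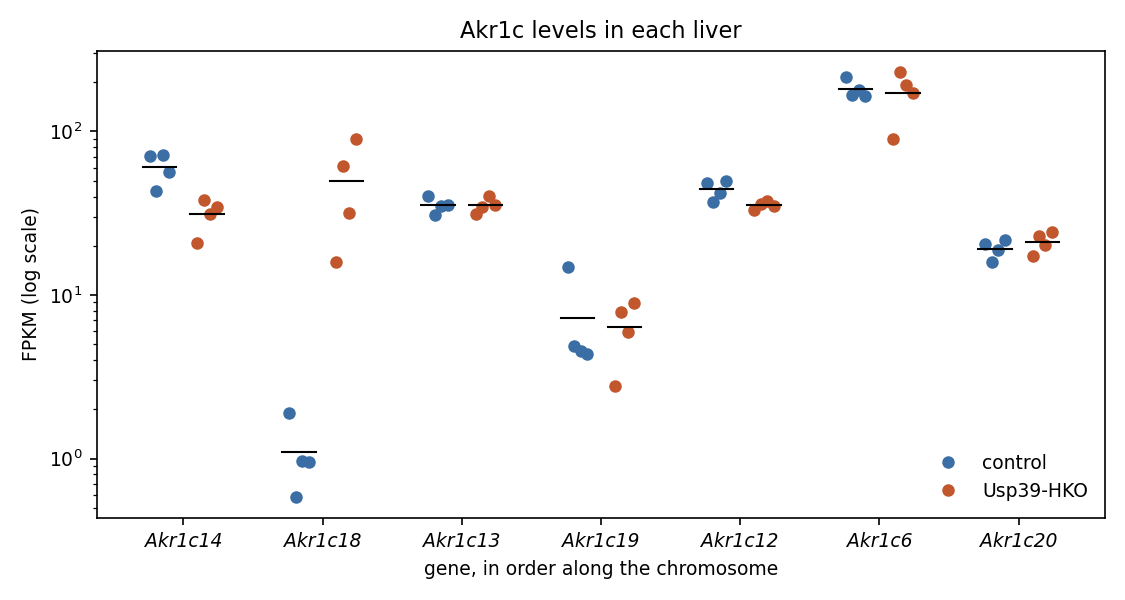
FPKM on a log scale of the 7 Akr1c genes in each of 4 control and 4 *Usp39*-HKO livers, in order along the chromosome, with black lines at the group means. The *Usp39*-HKO points of *Akr1c18*, from 16.0 to 89.8 FPKM, lie above all its control points, from 0.585 to 1.89, and those of *Akr1c14* lie below its control points.

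*Akr1c18* had the widest separation. For it and every other gene, a change in the number of cells of a type and a change in RNA per cell cannot be told apart in bulk liver. Its FPKM was 1.89, 0.585, 0.965 and 0.954 in control mice 1 to 4 and 16.0, 61.4, 31.7 and 89.8 in *Usp39*-HKO mice 1 to 4. The underlying counts were 21, 7, 10 and 12 in controls and 188, 755, 365 and 1028 in *Usp39*-HKO mice, so each control was above the floor of 3 counts but rested on few reads. Every *Usp39*-HKO liver was above every control liver, and the *Usp39*-HKO livers differed 5.61 times among themselves, with mouse 1 the lowest and mouse 4 the highest.

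The mean FPKM of *Akr1c18* was 49.7 ± 32.7 (SD, n = 4) in *Usp39*-HKO livers, 45.2 times the control mean. This put it after *Akr1c6* in the order of mean levels there, and its range over mice overlapped those of the other genes except *Akr1c19*. The log2 fold change from edgeR was 5.22 with a standard error of 0.53, rank 9 from the highest of the 14340 genes tested, of which 14 (0.0976%) had an absolute log2 fold change over 5. Leaving out 1 mouse at a time put it between 4.85, without *Usp39*-HKO mouse 4, and 5.62, without control mouse 1. On the scale of log2(FPKM + 1) in limma it was 4.36, a fold of 20.6 against 37.4 in edgeR, since the added 1 is as large as the control level.

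*Akr1c14* lay on the other side. Its FPKM was 70.6, 43.3, 71.5 and 56.5 in control mice 1 to 4 and 20.8, 38.2, 31.2 and 34.4 in *Usp39*-HKO mice 1 to 4. The lowest control, mouse 2, was close to the highest *Usp39*-HKO mouse, also numbered 2, but the groups did not overlap. The mean was 31.2 ± 7.46 FPKM (SD, n = 4) in *Usp39*-HKO livers, 0.515 of the control mean, and the log2 fold change was −1.20 (standard error 0.19). It stayed between −1.33 and −1.04 whichever mouse was left out, and was −0.96 with library totals alone.

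Markers of other liver cell types differed between genotypes as well, in lists that were also chosen with earlier results of these data known. The 10 hepatocyte markers were all expressed, with summed FPKM between 19500 and 21000 in controls and between 16900 and 22600 in *Usp39*-HKO livers, 0 higher and 4 lower at an adjusted p of 0.05 in edgeR. All 4 tested bile duct markers of 5 listed were higher, and their sum was 28.3, 28.7, 26.4 and 27.4 FPKM in control mice 1 to 4 and 64.1, 139, 149 and 285 in *Usp39*-HKO mice 1 to 4. Macrophage markers were higher for 4 of 5, with summed FPKM of 173 to 198 in controls and of 257, 309, 273 and 421 in *Usp39*-HKO mice 1 to 4. Stellate cell markers were higher for 5 of 6, with sums of 60.6 to 69.4 in controls and of 99.7, 169, 138 and 189 in the same order of *Usp39*-HKO mice. *Usp39*-HKO mice 1 and 4 were thus lowest and highest for the bile duct, macrophage and stellate sums as for *Akr1c18*. The macrophage and stellate sums ranked all 4 mice as *Akr1c18* did. The hepatocyte sum went the other way, at 22600, 16900, 20000 and 16900 FPKM in *Usp39*-HKO mice 1 to 4. Of 5 tested endothelial markers 2 were lower, of 5 tested lymphocyte and neutrophil markers 1 was higher, and of 2 tested gut markers 1 was lower. Over all genes tested, 10.9% were higher and 11.6% lower. The part of these cells in the *Akr1c18* and *Akr1c14* values was not tested.

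*Akr1c12* and *Akr1c13*, the near-identical pair, began at similar levels and differed in their values between genotypes. *Akr1c12* had an FPKM of 48.3, 37.0, 41.9 and 49.6 in control mice 1 to 4 and of 33.3, 35.8, 37.4 and 35.1 in *Usp39*-HKO mice 1 to 4. Its groups touched only through *Usp39*-HKO mouse 3 and control mouse 2. *Akr1c13* had 40.1, 30.7, 34.9 and 35.7 in controls and 31.4, 34.5, 40.4 and 35.5 in *Usp39*-HKO mice, and these ranges covered each other almost fully.

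The log2 fold change was −0.55 (standard error 0.11) for *Akr1c12* and −0.23 (standard error 0.12) for *Akr1c13*. Both values depended on the scale, since with library totals alone they were −0.32 and 0.00. The ratio of the pair within a mouse does not depend on any scaling between mice. *Akr1c12* FPKM over *Akr1c13* FPKM was 1.20, 1.21, 1.20 and 1.39 in control mice 1 to 4 and 1.06, 1.04, 0.925 and 0.989 in *Usp39*-HKO mice 1 to 4. Every control ratio was above every *Usp39*-HKO ratio, although reads shared by the pair may enter both counts.

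*Akr1c6*, the most abundant of the 7, had an FPKM of 215, 167, 180 and 164 in control mice 1 to 4 and of 89.7, 231, 193 and 173 in *Usp39*-HKO mice 1 to 4. *Usp39*-HKO mouse 1 was below all other mice and mouse 2 above them, so that the *Usp39*-HKO range enclosed the control range. The mean was 172 ± 59.7 FPKM (SD, n = 4) in *Usp39*-HKO livers and the log2 fold change −0.32 (standard error 0.22). It was −0.10 without *Usp39*-HKO mouse 1 and −0.50 without *Usp39*-HKO mouse 2.

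*Akr1c20*, whose coding sequence is nearest to that of *Akr1c6*, had an FPKM of 20.5, 15.8, 18.8 and 21.6 in control mice 1 to 4 and of 17.4, 23.1, 20.1 and 24.3 in *Usp39*-HKO mice 1 to 4. The groups overlapped over most of their ranges. The log2 fold change was −0.09 (standard error 0.12), and it turned to 0.15 with library totals alone.

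*Akr1c19* showed the least agreement between control mice. Its FPKM was 14.9, 4.90, 4.56 and 4.38 in control mice 1 to 4 and 2.76, 7.91, 5.92 and 8.88 in *Usp39*-HKO mice 1 to 4. Control mouse 1 was above all other livers, and 3 of the 4 *Usp39*-HKO livers were above the other 3 controls. The log2 fold change was −0.43 (standard error 0.41) with all mice and 0.21 (standard error 0.28) without control mouse 1, so its sign rested on that mouse.

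In all, the FPKM groups did not overlap for 2 of the 7 genes. *Akr1c18* was the one above, as were 23.9% of all genes tested, and *Akr1c14* the one below, as were 4.81%. On TMM-scaled CPM 3 of the 7 did not overlap, *Akr1c18* above (11.9% of all genes) and *Akr1c12* and *Akr1c14* below (12.9%). An absolute log2 fold change over 1 was found for *Akr1c14* and *Akr1c18*, against 9.07% of all genes.

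The plot along the cluster shows that the genes with the largest separations in opposite directions lie side by side. *Akr1c14* and *Akr1c18* are next to each other at one end, on opposite strands. The other 5 genes, further along, had log2 fold changes between −0.55 and −0.09.

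**Figure D2:**
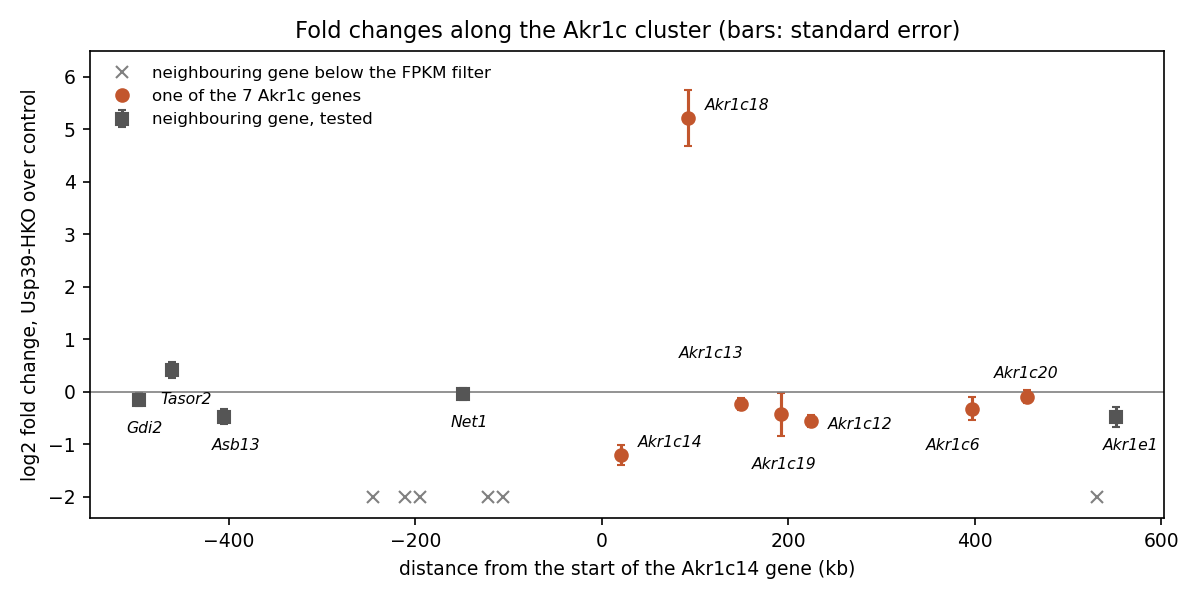
Log2 fold change between genotypes (positive where *Usp39*-HKO is higher) from edgeR, with standard errors, against the distance of each gene's middle from the start of *Akr1c14* in kb. Round points are the 7 Akr1c genes and squares the 5 neighbouring genes tested, and crosses, set at −2 for display only, mark the 6 neighbours with too low an FPKM to test. *Akr1c18* stands at 5.22, and its neighbours on both sides lie at −1.20 and −0.23.

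Outside the 7, 11 protein-coding genes lie within 1 Mb of the cluster, and 5 of them were tested. *Asb13* was lower (log2 fold change −0.47, adjusted p = 0.0438 in edgeR), a call lost in 7 of the 8 fits that left out 1 mouse (adjusted p between 0.0165 and 0.123) and with library totals alone (adjusted p = 0.227). The log2 fold change was −0.15 for *Gdi2*, 0.41 for *Tasor2*, −0.04 for *Net1* and −0.47 for *Akr1e1*, none of which passed the test (adjusted p of 0.413, 0.0612, 0.833 and 0.105 in edgeR). The neighbours called were thus 1 of 5, against 22.5% of all genes. *Calml3*, *Calm4*, *Calm5*, *Tubal3*, *Ucn3* and *Akr1c21* had at most 3 counts in any mouse.

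The make-up of the family differed between genotypes. Summed over the 7 genes the FPKM averaged 349 ± 47.2 (SD, n = 4) for control mice and 351 ± 97.6 (SD, n = 4) for *Usp39*-HKO mice. These sums are scaled to library totals, and divided by the TMM factors, a scaling chosen after the data were seen, they averaged 379 ± 54.5 and 321 ± 80.2 (SD, n = 4). The genotypes overlapped on both scales. *Akr1c18* gave 0.304% ± 0.112 of that sum in controls, and its part in *Usp39*-HKO livers was 13.3% ± 6.76 with a range of 7.58% to 22.4%. *Akr1c14* gave 17.2% ± 2.38 in controls, against 8.99% ± 0.587 for *Usp39*-HKO (SD, n = 4 mice each). These shares are per length and need no scaling between mice. As parts of a whole they are not independent, and a higher *Akr1c18* share by itself lowers the other shares.

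**Figure D3:**
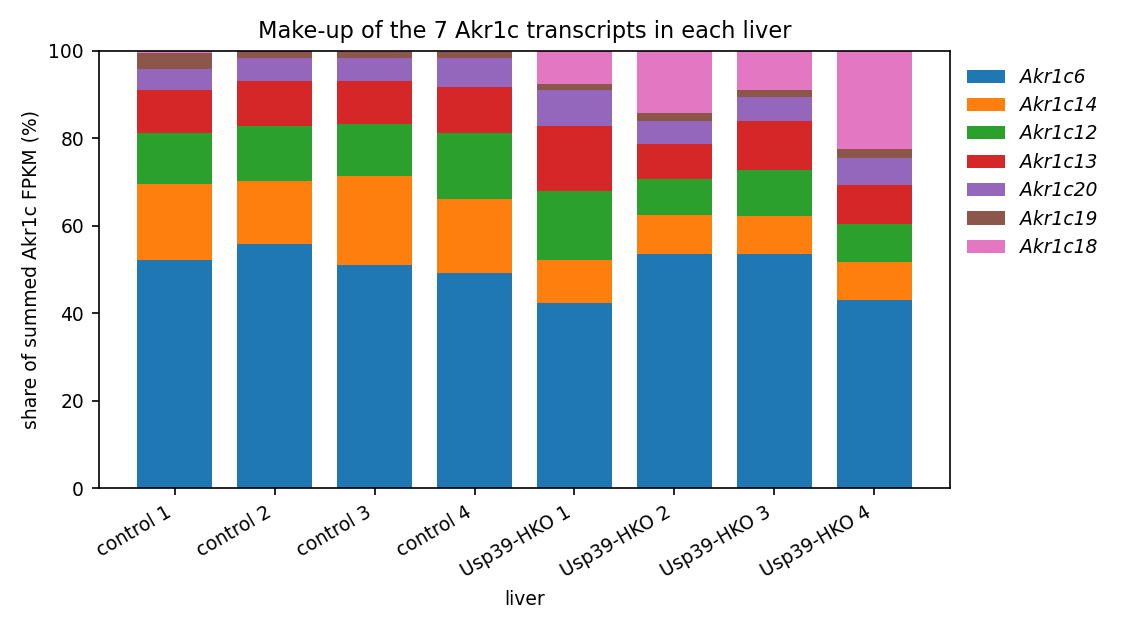
Share of each Akr1c gene in the summed FPKM of the 7, in percent, for each control and *Usp39*-HKO liver. *Akr1c6* gives between 42.4% and 55.8% in every liver, *Akr1c18* at most 0.461% in controls and at least 7.58% in *Usp39*-HKO livers, and *Akr1c14* at least 14.5% in controls and at most 9.86% in *Usp39*-HKO livers.

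*Akr1c6* remained the largest part, with 52.1% ± 2.76 in controls against 48.2% ± 6.24 in *Usp39*-HKO livers. The *Akr1c12* share was 12.7% ± 1.49 and 10.8% ± 3.42, and the *Akr1c13* share 10.2% ± 0.437 and 10.7% ± 3.06. *Akr1c20* gave 5.52% ± 0.663 and 6.31% ± 1.32, and *Akr1c19* gave 1.97% ± 1.11 and 1.75% ± 0.380. For these 5 genes the ranges of the shares overlapped between genotypes.

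The ratio of *Akr1c18* to *Akr1c14* FPKM within a mouse compares the genes at both extremes. It was 0.0268, 0.0135, 0.0135 and 0.0169 in control mice 1 to 4 and 0.769, 1.60, 1.02 and 2.61 in *Usp39*-HKO mice 1 to 4. *Akr1c18* was thus the rarer of the pair in every control and the more abundant in 3 of the 4 *Usp39*-HKO livers. The ratio of *Akr1c14* to *Akr1c6*, both abundant, ranged from 0.260 to 0.398 in controls, and each *Usp39*-HKO liver was below that, at 0.162 to 0.232. The ratio of *Akr1c6* to *Akr1c20* lay between 7.59 and 10.6 in controls and was 5.15 in *Usp39*-HKO mouse 1 and 9.59 in mouse 3, so the groups overlapped.

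Among the *Usp39*-HKO livers, mouse 1 had the lowest FPKM of each of the 7 genes. Mouse 4 was the highest for *Akr1c18*, *Akr1c19* and *Akr1c20*, mouse 2 for *Akr1c6* and *Akr1c14*, and mouse 3 for *Akr1c12* and *Akr1c13*. Among controls no single mouse was lowest throughout, although mouse 2 was for *Akr1c12*, *Akr1c13*, *Akr1c14*, *Akr1c18* and *Akr1c20*. The highest mouse of a genotype exceeded the lowest by between 1.12 times (*Akr1c12* in *Usp39*-HKO livers) and 5.61 times (*Akr1c18* in *Usp39*-HKO livers).

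**Figure D4:**
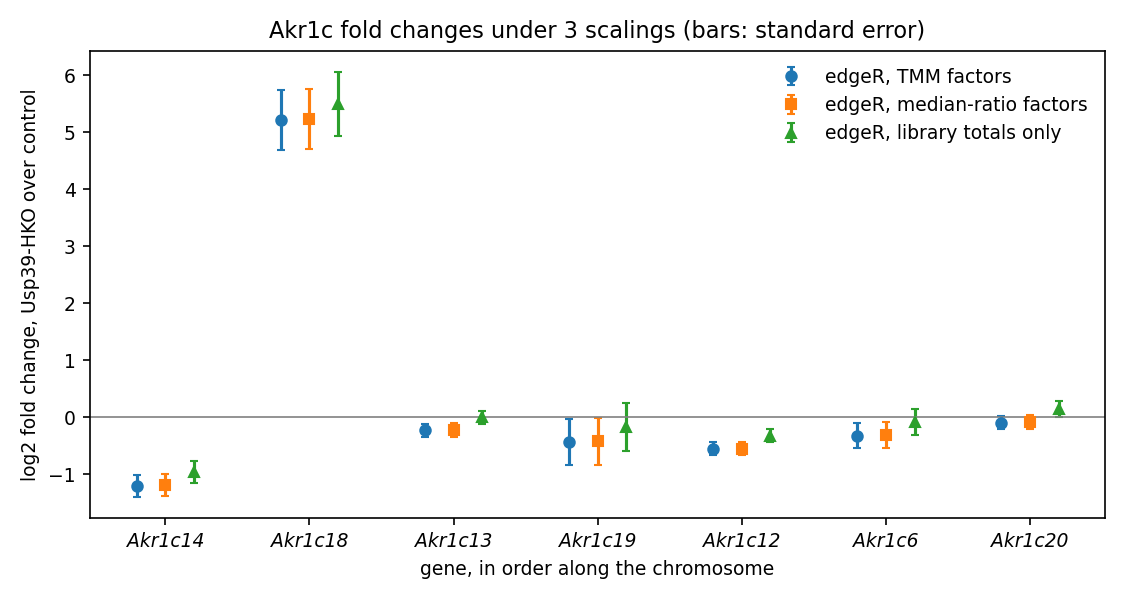
Log2 fold change between genotypes (positive where *Usp39*-HKO is higher) and its standard error for each of the 7 Akr1c genes, from edgeR on counts with TMM factors, median-ratio factors or library totals alone. *Akr1c18* stays above 5 and *Akr1c14* between −1.20 and −0.96 under the 3 scalings, whereas *Akr1c20* turns from −0.09 to 0.15 and *Akr1c13* from −0.23 to 0.00.

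The tested genes outside the family whose profile over the 8 mice was nearest to each of the 7 were found by the root mean square difference of centred log2 TMM-scaled CPM. This is a description over the same 8 libraries. The profile spans both genotypes, so for a gene with a large fold change the difference mostly follows that fold, which was known when the list was chosen. Nearest to *Akr1c18* were *Gsta1* and *Gstm3*, both glutathione transferases, at 0.417 and 0.539, where the profile of *Akr1c18* itself had a root mean square of 2.551. *Gsta1* had an FPKM of 0.456, 0.211, 0.122 and 0.10 in control mice 1 to 4 and of 3.55, 21.3, 16.1 and 37.4 in *Usp39*-HKO mice 1 to 4, which is low in all controls and, as for *Akr1c18*, lowest in mouse 1 and highest in mouse 4 of the *Usp39*-HKO livers. *Gstm3* had 7.81, 6.93, 4.08 and 7.61 in controls and 50.9, 262, 249 and 400.0 in *Usp39*-HKO mice. *Gsta1* passed the filter only through *Usp39*-HKO mice, since all its controls were under 0.5 FPKM. The nearest of the other 6 family members to *Akr1c18*, *Akr1c20*, was at rank 7203 among all genes. Its difference of 2.566 was larger than the root mean square of *Akr1c18* itself, so this rank mostly restates the fold change.

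Nearest to *Akr1c19* were *Aox1*, an aldehyde oxidase, at 0.271 and *Gclc*, the catalytic subunit of the first enzyme of glutathione synthesis, at 0.275. Both shared the high value of control mouse 1. *Aox1* had an FPKM of 15.8 there against 5.81 to 6.98 in the other controls, and *Gclc* had 126 against 47.0 to 54.5. The nearest family member to *Akr1c19* was *Akr1c6*, at rank 77 with a difference of 0.468.

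Nearest to *Akr1c14* were *Cyb5d2* and *Ptprd* at 0.143 and 0.145, with log2 fold changes of −1.02 and −1.0. For *Akr1c6* these were *Agtpbp1* and *Sh3d19* (0.057 and 0.079), for *Akr1c12* *Snap47* and *Apip* (0.053 and 0.064), for *Akr1c13* *Arl4a* and *Rab21* (0.070 at most) and for *Akr1c20* *Fkbp3* and *Efcab14* (0.049 and 0.051). *Akr1c13*, despite its near-identical sequence, was at rank 597 for *Akr1c12*, with a difference of 0.178. Rank 77, of *Akr1c6* for *Akr1c19*, was the best of any of the 7 for another.

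Of the remaining aldo-keto reductase genes, 13 of 14 listed symbols were found and 8 were tested. This list and the gene lists that follow were chosen with earlier results of these data known. Their counts and adjusted p are therefore a description and not independent evidence. Adjusted over all genes, *Usp39*-HKO livers had 2 of the 8 higher and 2 lower, against 10.9% and 11.6% of all genes, with a median log2 fold change of 0.32. *Akr1b7*, an aldose reductase relative, had an FPKM of 0.595, 0.787, 0.727 and 0.375 in control mice 1 to 4 and of 6.67, 2.37, 3.35 and 37.1 in *Usp39*-HKO mice 1 to 4. Every *Usp39*-HKO liver was above the controls, and mouse 4 was far above the other 3. Its log2 fold change of 4.00 (standard error 0.88) had an adjusted p of 0.00874 in edgeR and was 2.55 without that mouse, with the call kept.

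*Akr1b3*, the aldose reductase that makes sorbitol from glucose, was higher (control 0.749 ± 0.165 FPKM, *Usp39*-HKO 2.13 ± 0.677 FPKM, SD over 4 mice, log2 fold change 1.26, adjusted p = 0.00242 in edgeR). *Akr1d1*, the steroid reductase of bile acid synthesis, was lower by the same test (control 58.7 ± 9.09 FPKM, *Usp39*-HKO 47.3 ± 8.03 FPKM, log2 fold change −0.55, adjusted p = 0.0138), and so was *Akr7a5*, which reduces aflatoxin aldehydes (control 65.4 ± 7.35 FPKM, *Usp39*-HKO 54.1 ± 8.26 FPKM, log2 fold change −0.50, adjusted p = 0.0319). The *Akr7a5* call held in 3 of the 8 fits without 1 mouse (adjusted p 0.0186 to 0.0884 in edgeR) and was lost at a mean FPKM of at least 5 (adjusted p = 0.0506 in edgeR). With library totals alone neither *Akr1d1* nor *Akr7a5* was called (adjusted p of 0.129 and 0.130), and 5 genes of the list were called higher and 0 lower. *Akr1a1*, *Akr1b8*, *Akr1b10* and *Akr1e1* had log2 fold changes of 0.13, 0.51, 0.51 and −0.47 and did not pass the test. *Akr1c21*, *Akr1cl* and the channel subunits *Kcnab1*, *Kcnab2* and *Kcnab3* were below the filter.

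Steroid and bile acid enzymes outside the aldo-keto reductases lay mostly lower. Of 31 tested, 2 were higher and 18 lower, against 10.9% and 11.6% of all genes, with a median log2 fold change of −0.70 where that of all genes was −0.00148. These counts are a description, since the list was chosen with earlier results known. *Hsd3b5*, a hydroxysteroid dehydrogenase of male mouse liver, fell most (control 2.44 ± 0.830 FPKM, *Usp39*-HKO 0.252 ± 0.377 FPKM, log2 fold change −3.47, adjusted p = 0.00405 in edgeR). Its *Usp39*-HKO values were 0, 0.127, 0.812 and 0.0681 FPKM in mice 1 to 4, so the size of that fold rests on values at or near 0, and leaving out *Usp39*-HKO mouse 3 gave a log2 fold change of −5.26. *Hsd3b5* passed the filter only through the controls, where it is high, since among *Usp39*-HKO mice only mouse 3 reached 0.5 FPKM. *Cyp7b1*, the oxysterol hydroxylase, followed by the same test (control 17.1 ± 7.78 FPKM, *Usp39*-HKO 2.91 ± 0.516 FPKM, log2 fold change −2.79, adjusted p = 0.000567). *Dhrs9*, a short-chain dehydrogenase of retinol and steroids, rose (control 0.670 ± 0.140 FPKM, *Usp39*-HKO 4.00 ± 1.9 FPKM, log2 fold change 2.32, adjusted p = 0.00177 in edgeR). With library totals alone 5 were higher and 15 lower.

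Of 27 tested genes of prostaglandin metabolism and carbonyl reduction, 7 were higher and 6 lower, against 10.9% and 11.6% of all genes, with a median log2 fold change of −0.16. The carbonyl reductase *Cbr3* had the largest change (control 0.569 ± 0.150 FPKM, *Usp39*-HKO 4.45 ± 2.39 FPKM, log2 fold change 2.69, adjusted p = 0.00121 in edgeR). *Ptgr1*, which reduces prostaglandin and leukotriene derivatives, and *Hpgds*, a prostaglandin D synthase, rose by 2.08 and 1.81 on the log2 scale (adjusted p of 0.00120 and 0.00242 in edgeR). *Hpgds* had 0.356, 0.597, 0.362 and 0.373 FPKM in control mice 1 to 4, so it passed the filter only through the *Usp39*-HKO mice. *Ptger2*, also called higher, lay between 0.357 and 0.538 FPKM in controls, near the filter. The 6 lower calls were lost with library totals alone, which gave 9 higher and 0 lower.

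Of 26 tested steroid receptors and liver regulators, 2 were higher and 12 lower, against 10.9% and 11.6% of all genes, with a median log2 fold change of −0.38. *Nr1i3*, the constitutive androstane receptor, had a log2 fold change of −1.31 (adjusted p = 0.000758 in edgeR), and *Esr1*, the estrogen receptor, one of −1.02 (adjusted p = 0.000916 in edgeR). *Onecut1*, a hepatocyte transcription factor, was higher (log2 fold change 1.22, adjusted p = 0.0108 in edgeR). With library totals alone 4 of the 26 were higher and 5 lower.

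**Figure D5:**
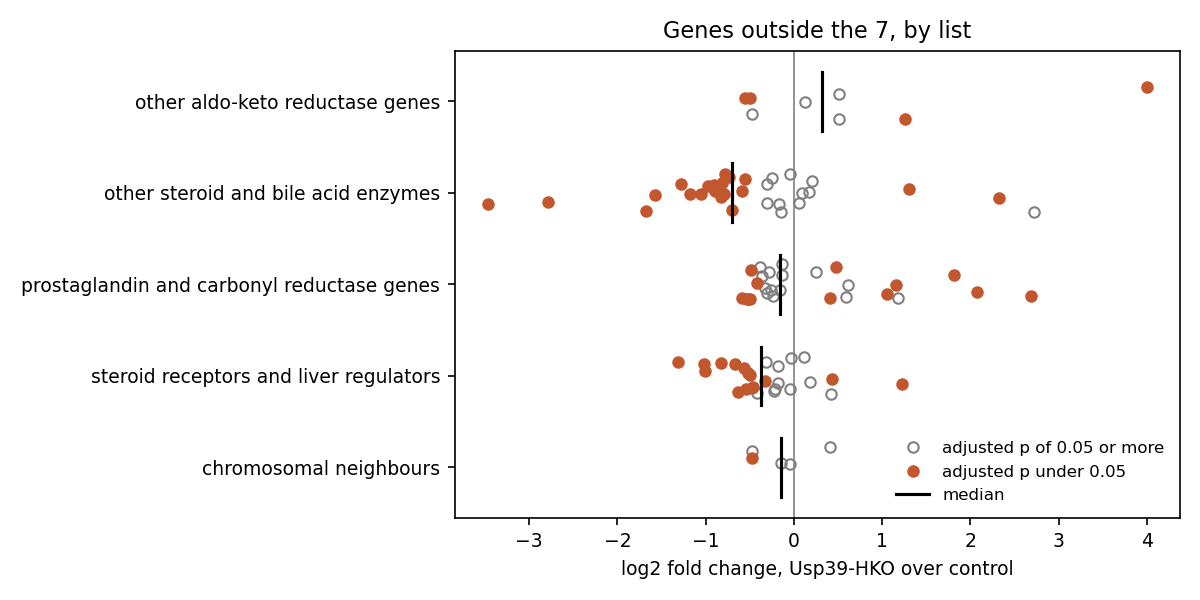
Log2 fold change between genotypes (positive where *Usp39*-HKO is higher) from edgeR for the tested genes of 5 lists outside the 7 Akr1c genes, filled where the adjusted p was under 0.05, with a black bar at the median of each list. The steroid and bile acid enzymes lie mostly below 0, with a median of −0.70, and the median of the other aldo-keto reductases is 0.32.

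Steroid-making glands, kidney and pancreas were checked as well. Of the 9 steroidogenic gland markers *Cyp21a1*, *Nr5a1* and *Cyp11b1* were at 0 in all mice and *Cyp11a1* reached at most 0.022 FPKM. Other markers of the list were not silent. *Cyp17a1* lay between 21.8 and 80.0 FPKM over all livers, *Fdx1* between 18.4 and 23.7 and *Star* between 0.793 and 1.26. These were the 3 that could be tested, and none was called. The summed FPKM, which rested mostly on *Cyp17a1* and *Fdx1*, overlapped between genotypes, from 43.8 in control mice and from 49.0 in *Usp39*-HKO mice upwards. The summed FPKM of the 5 kidney markers was at most 0.105. Pancreas markers summed to 228 FPKM in control mouse 4, with *Prss2* at 81.4, and to at most 3.32 in any other liver, and leaving out that mouse gave a log2 fold change of 5.15 for *Akr1c18* and −1.24 for *Akr1c14*.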

How the data were processed

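Liver RNA of 8 male mice, 1 library each, was sequenced as paired reads on an Illumina NovaSeq. Per the labels, the authors used Trim Galore 0.6.1, FastQC 0.11.9, HISAT2, Picard, featureCounts and DESeq2 with mm10. The annotation release, strand setting and treatment of reads that map more than once are not given in the sources used here. The authors deposited raw counts per gene together with exon length, and FPKM computed from counts, length and the total of the mouse. The deposited columns of the authors' own DESeq2 comparison (a mean normalized signal, a log2 fold change, scores for its error and its Wald statistic, and p-values) were not used. The 314 repeated entries of the table were read once.

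The members and all lists were chosen with earlier results of these data known. edgeR 4.0.16 (quasi-likelihood test, TMM factors, 2 genotypes, no covariate, Benjamini-Hochberg over 14340 genes) was run in R 4.3.3 and was tested on simulated data. The simulated data held far fewer changed genes than were called here and no shift between genotypes. They therefore do not bear on the choice of scaling. Standard errors were taken from each fold change divided by the root of F. Alternatives were median-ratio factors, library totals alone, no filter, a mean FPKM of at least 5, DESeq2 1.42.0, limma 3.58.1 on log2(FPKM + 1) and leaving out each mouse. Mice are numbered in accession order within a genotype, and mice of 1 genotype differed beyond counting error (chi-square over its degrees of freedom 7.02 to 36.4). Named were every member, every tested aldo-keto reductase, the 3 largest changes among called genes of each other list, the nearest neighbours, the 2 genes nearest in profile to each member, and *Usp39*. Genes and coding sequences come from GENCODE vM21 (55144 of 55385 identifiers matched), aligned with Biopython 1.88, and promoters from RefSeq on GRCm38.p6.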

Additional observations from a re-analysis of the deposited data

Results flagged for a closer look

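For the 7 Akr1c genes and the other genes named from the lists, each genotype was taken as a group of 4 mice, 52 groups in all. The highest or lowest mouse was checked for its distance from the nearest other mouse relative to the range of the group (Dixon's test for 4 values). Chance flags about 1 group in 20, and 4 groups were past the value. *Akr1c19* had an FPKM of 14.9 in control mouse 1 against 4.38 to 4.90 in the other controls (ratio 0.951). *Akr1b7* had 37.1 in *Usp39*-HKO mouse 4 against 2.37 to 6.67 (ratio 0.877). *Hpgds* had 0.597 in control mouse 2 against 0.356 to 0.373 (ratio 0.927). *Hsd3b5* had 0.812 in *Usp39*-HKO mouse 3 against 0.00 to 0.127 (ratio 0.844).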

How the results depend on the processing

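No paired analysis was possible, because the sources used here do not give the litter of each mouse. The controls are littermates, so an effect of litter was not removed and is not shown to be absent. Of the settings tried for the 7 Akr1c genes, *Akr1c14* and *Akr1c18* kept their direction under every alternative run and *Akr1c6* and *Akr1c12* did so as well. With library totals alone, the log2 fold change was −0.32 for *Akr1c12*, 0.00 for *Akr1c13* and 0.15 for *Akr1c20*, and in limma on log2(FPKM + 1) it was −0.30, 0.00 and 0.14, with 4.36 for *Akr1c18*. Both settings leave in the higher median gene of *Usp39*-HKO livers (0.23 and 0.17). Leaving out 1 mouse at a time gave −0.50 to −0.10 for *Akr1c6*, −0.63 to −0.50 for *Akr1c12*, −0.30 to −0.16 for *Akr1c13*, −1.33 to −1.04 for *Akr1c14*, 4.85 to 5.62 for *Akr1c18*, −0.62 to 0.21 for *Akr1c19* and −0.18 to −0.01 for *Akr1c20*.

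At a mean FPKM of at least 5, 1595 of 6672 genes were called in place of 3225 of 14340, so fewer genes were tested as well as called. The same filter called 2 of 5 other aldo-keto reductases in place of 4 of 8. It called 6 of 18 prostaglandin and carbonyl genes in place of 13 of 27. For the receptors and regulators it called 7 of 21 in place of 14 of 26, and for the neighbours 0 of 4 in place of 1 of 5. The receptors and regulators numbered 9 with library totals alone and 9 in limma, in place of 14. The neighbours numbered 2 of 8 tested without a filter and 2 of 5 in DESeq2, in place of 1 of 5. In limma the calls were split 3 higher and 0 lower for the other aldo-keto reductases, 4 and 12 for the steroid and bile acid enzymes and 9 and 0 for the prostaglandin and carbonyl genes. Over fits without 1 mouse, 1917 to 3321 genes were called, with 1917 without control mouse 3 and without *Usp39*-HKO mouse 4 and 2038 without control mouse 4. The same fits called 3 to 5 of the other aldo-keto reductases, 16 to 20 of the steroid and bile acid enzymes, 8 to 14 of the prostaglandin and carbonyl genes (8 without control mouse 4 or *Usp39*-HKO mouse 3 or 4), 8 to 13 of the receptors and regulators (8 without *Usp39*-HKO mouse 4, 9 without control mouse 3 or 4 or *Usp39*-HKO mouse 3) and 0 to 1 of the neighbours. The cause of these changes in count was not tested, beyond the smaller number of mice or genes. Of the tests of single genes outside the 7, 225 kept direction and side of the threshold, 24 lost the call and 7 gained it. The summed FPKM of the 7 genes had a log2 ratio of means of 0.01 as deposited and −0.24 divided by the TMM factors, a setting added after seeing the data. Depth limits *Akr1c18* most in controls, where it rests on 7 to 21 counts.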
